A study of Mus musculus with 12 samples.

Results

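The inflammasome genes Casp1, Casp4, Nlrp3, Nlrp6, Nlrc4, Aim2, Pycard, Gsdmd, Il1b and Il18 were followed in mouse liver across a genotype and a diet. The 10 genes were taken by symbol from a table of 55357 genes, and all 10 passed the filter on low counts that left 17358 genes for testing. Against liver of wild type (WT) mice on chow, 7 of them rose in each of the other groups, Nlrp6 fell in each, Il18 fell in both groups on the high fat diet, and Gsdmd, the pore-forming effector, passed the test in none of these comparisons. Of all genes tested, 22% to 26.9% were called higher in these comparisons and 17% to 25.4% lower. None of the 10 passed the test between the genotypes on CDAHFD, a choline-deficient high fat diet. There only 0.0864% of all genes were called higher and 0.271% lower, so 0 of 10 is near that share.

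An inflammasome is a protein complex that assembles in the cytosol when a sensor recognises a microbial or damage signal. NLRP3 responds to ion flux and membrane damage, AIM2 to cytosolic DNA, and NLRC4 to bacterial flagellin and secretion proteins through NAIP partners. PYCARD, also called ASC, is the adaptor that joins sensor to caspase 1, while caspase 4 (caspase 11 in the mouse) is bound directly by bacterial lipopolysaccharide. Active caspases cut gasdermin D into a pore, and caspase 1 also cuts the precursors of IL-1β and IL-18, which leave the cell as it dies by pyroptosis. In liver, Kupffer cells and recruited monocytes are the best known source of NLRP3 and IL-1β, and inflammasome activity has been studied there as a part of steatohepatitis.

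RNA was sequenced from whole liver of male C57BL/6J mice that were 7 weeks old when they began 6 weeks of diet and 13 weeks old at the end. All mice carried the floxed allele of Ppara. KO mice were PPARafl/fl AlbuminCreTg/+, in which Cre is driven by the albumin promoter and so acts in hepatocytes, and WT mice were PPARafl/fl AlbuminCre+/+, without the transgene. They ate chow or CDAHFD, which is a diet high in fat and without choline, with L-amino acids in place of protein, that produces steatohepatitis, and gave 12 libraries: 4 WT chow, 3 WT CDAHFD, 2 KO chow and 3 KO CDAHFD. These numbers are from the labels, where the methods give 3 mice for each group, and KO chow 2 is described there as KO3. The count totals were 29906785 to 43551003 per library, with a median of 36989922.

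Ppara itself was lower in every KO library. Its level in CPM (counts per 1000000 counts of the library) was 96.2 to 238 CPM in WT chow and 59.5 to 75.5 CPM in WT CDAHFD, against 14.4 and 38.7 CPM in KO chow and 20.7 to 51.9 CPM in KO CDAHFD, so no KO library reached the lowest WT library. The libraries of a group also differed in clock genes. Dbp, a clock output gene, was at 0.388 to 3.75 CPM in 8 libraries and at 44.8 to 130 CPM in the other 4, which were WT chow 3 and 4, KO chow 2 and KO CDAHFD 3. Changes of single genes whose call or sign differed when only the 8 libraries of low Dbp were fitted are given with both values. That fit held 1 KO chow library, and its counts of called genes, which also differed, are not given. Hepatocyte markers such as Alb and Apoa1 summed to 41000 to 102000 CPM in every library, so the defining markers of the labelled tissue were present.

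Promoters of these genes were read from RefSeq (GRCm38.p6), where 9 of the 10 genes matched, with 11 start sites. The 250 bases before the start are shown for 6 of the genes that the results turn on, 5′ to 3′ on the strand of the gene, and capitals mark matches on either strand to a few short motifs. Searched motifs were the NF-κB consensus, the interferon response element and the PPAR response element, each by its usual consensus, TGANTCA for AP-1, GAGGAAGT for PU.1, TTNNGCAA for C/EBP and TATAAA for the TATA box. The set holds the sensor NLRP3, the DNA sensor, the adaptor, the lipopolysaccharide-binding caspase, the cytokine and the sensor that fell.
Nlrp3 (chr11:59541319-59541568, plus strand): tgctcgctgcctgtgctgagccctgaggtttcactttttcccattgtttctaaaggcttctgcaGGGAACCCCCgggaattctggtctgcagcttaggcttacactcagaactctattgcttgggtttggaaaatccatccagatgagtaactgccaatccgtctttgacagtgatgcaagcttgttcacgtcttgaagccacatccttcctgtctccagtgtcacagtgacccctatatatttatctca
Aim2 (chr1:173420354-173420603, plus strand): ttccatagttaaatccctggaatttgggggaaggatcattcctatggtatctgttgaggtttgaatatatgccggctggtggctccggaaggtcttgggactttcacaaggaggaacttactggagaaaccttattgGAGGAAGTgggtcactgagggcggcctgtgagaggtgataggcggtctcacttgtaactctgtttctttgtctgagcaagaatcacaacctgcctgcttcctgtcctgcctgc
Pycard (chr7:127993868-127994117, minus strand): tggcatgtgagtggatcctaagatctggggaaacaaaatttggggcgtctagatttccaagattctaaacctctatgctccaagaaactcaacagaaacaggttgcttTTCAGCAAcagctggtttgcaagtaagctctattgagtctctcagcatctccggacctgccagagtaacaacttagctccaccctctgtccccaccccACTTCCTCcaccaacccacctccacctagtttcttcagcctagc
Casp4 (chr9:5308599-5308848, plus strand): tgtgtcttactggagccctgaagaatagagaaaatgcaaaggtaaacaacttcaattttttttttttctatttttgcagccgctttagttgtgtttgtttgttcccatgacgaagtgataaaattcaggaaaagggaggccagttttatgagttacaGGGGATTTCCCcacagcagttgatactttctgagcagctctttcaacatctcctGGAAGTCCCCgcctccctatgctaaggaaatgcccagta
Il1b (chr2:129371140-129371389, minus strand): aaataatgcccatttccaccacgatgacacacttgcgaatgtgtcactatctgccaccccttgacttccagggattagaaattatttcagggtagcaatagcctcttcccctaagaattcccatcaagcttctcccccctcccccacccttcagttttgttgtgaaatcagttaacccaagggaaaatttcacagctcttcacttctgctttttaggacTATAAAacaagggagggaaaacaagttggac
Nlrp6 (chr7:140920652-140920901, plus strand): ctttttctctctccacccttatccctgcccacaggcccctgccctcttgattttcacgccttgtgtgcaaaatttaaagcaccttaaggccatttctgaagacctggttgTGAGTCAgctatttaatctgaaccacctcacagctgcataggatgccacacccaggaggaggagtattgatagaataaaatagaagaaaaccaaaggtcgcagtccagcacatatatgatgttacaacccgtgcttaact
In these windows the NF-κB consensus matched Casp4 and Nlrp3, where the second RefSeq start of Nlrp3, at chr11:59542436-59542685, held no match. Its matches in Casp4 overlap each other at the more distant place, 93 to 83 bases before the start, and a further match lies 39 to 30 bases before it. That consensus was present in 7.25% of 32851 promoter windows of the same length. The PU.1 motif, found in 2.44% of windows, matched Aim2 and Pycard, and the C/EBP motif, found in 9.56%, matched Pycard and Nlrc4. Nlrp6 held the AP-1 motif, which 6.75% of windows hold. Il1b held a TATA box 31 to 26 bases before the start, a motif that 12.4% of windows hold. The same letters also matched in Il18, but on the opposite strand and 175 to 170 bases before the start. The interferon and PPAR response elements, in 2.98% and 0.338% of windows, matched in none of the 9 genes searched. Gsdmd had no promoter entry and was not searched. A match is a description of letters and not a measured binding site.

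Among the sensors, Nlrp3 (ENSMUSG00000032691, chr11:59541568-59566956 in GRCm38) was low in WT chow liver, at 2.02, 1.32, 1.60 and 1.19 CPM. It was at 3.97 and 4.32 CPM in KO chow, at 4.79, 4.06 and 4.13 CPM in WT CDAHFD, and at 4.10, 3.10 and 3.07 CPM in KO CDAHFD. Every library of the other groups lay above the highest WT chow library. The log2 fold change was 1.43 ± 0.222 (SE) for KO chow, 1.49 ± 0.202 for WT CDAHFD and 1.15 ± 0.204 for KO CDAHFD, with adjusted p-values of 0.000271, 5.28e-05 and 0.000418 by edgeR's quasi-likelihood test. These are rises of 2.7-fold, 2.81-fold and 2.23-fold.

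Aim2 (ENSMUSG00000037860, chr1:173350879-173466040), the DNA sensor, had the tightest WT chow values of the 10 genes, at 1.44, 1.57, 1.5 and 1.65 CPM. It stood at 3.62 and 4.05 CPM in KO chow, at 5.82, 6.00 and 5.27 CPM in WT CDAHFD, and at 6.25, 5.13 and 5.83 CPM in KO CDAHFD. The groups on CDAHFD did not overlap with KO chow, and KO chow did not overlap with WT chow. Its rise was 2.49-fold for KO chow (log2 1.32 ± 0.165, adjusted p = 5.01e-05), 3.70-fold for WT CDAHFD (1.89 ± 0.149, 5.53e-07) and 3.72-fold for KO CDAHFD (1.90 ± 0.149, 5.09e-07).

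Nlrc4 (ENSMUSG00000039193, chr17:74425438-74459142), the NAIP partner, was the least abundant of the 4 sensors among the 10 genes. Its values were 0.815, 1.04, 1.30 and 1.33 CPM in WT chow, 1.85 and 2.62 CPM in KO chow, 3.07, 2.82 and 1.92 CPM in WT CDAHFD, and 2.84, 2.33 and 2.21 CPM in KO CDAHFD. No library of the other groups fell into the WT chow range, while those 3 groups overlapped. The rise was 2.32-fold for WT CDAHFD (log2 1.22 ± 0.246, adjusted p = 0.00123) and 2.19-fold for KO CDAHFD (1.13 ± 0.248, 0.00198). In KO chow it was 0.997 ± 0.276 on the log2 scale (adjusted p = 0.0122), a call that was lost without KO chow 2 (0.723, adjusted p = 0.136) and in the libraries of low Dbp (0.985, adjusted p = 0.0812).

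Nlrp6 (ENSMUSG00000038745, chr7:140920902-140929192), a sensor best known from intestinal epithelium, went the other way. It was by far the most abundant of those 4 sensors in WT chow liver, at 237, 279, 257 and 287 CPM, and stood at 86.9 and 111 CPM in KO chow, at 91.0, 85.1 and 119 CPM in WT CDAHFD, and at 123, 116 and 98.4 CPM in KO CDAHFD. The lowest WT chow library was above the highest of all the others, and the other 3 groups overlapped. It was 2.68-fold lower for KO chow (log2 -1.42 ± 0.170, adjusted p = 3.44e-05), 2.69-fold lower for WT CDAHFD (-1.43 ± 0.146, 5.05e-06) and 2.36-fold lower for KO CDAHFD (-1.24 ± 0.145, 1.47e-05).

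The adaptor Pycard (ENSMUSG00000030793, chr7:127989708-127993867) made the largest change of the 10 genes. From 0.854, 1.16, 0.834 and 0.688 CPM in WT chow it reached 3.34 and 2.26 CPM in KO chow, 5.55, 6.49 and 3.93 CPM in WT CDAHFD, and 5.58, 6.12 and 4.78 CPM in KO CDAHFD. Its KO chow values lay between those of WT chow and those of the CDAHFD groups. The rise was 3.12-fold for KO chow (log2 1.64 ± 0.268, adjusted p = 0.000394), 5.94-fold for WT CDAHFD (2.57 ± 0.241, 2.39e-06) and 6.12-fold for KO CDAHFD (2.61 ± 0.242, 1.95e-06). An unverified transcript, Gm45205, overlaps 12.8% of the exon length of Pycard on the opposite strand in libraries that do not keep strand, but its counts came to 0.511% of those of Pycard.

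**Figure D1:**
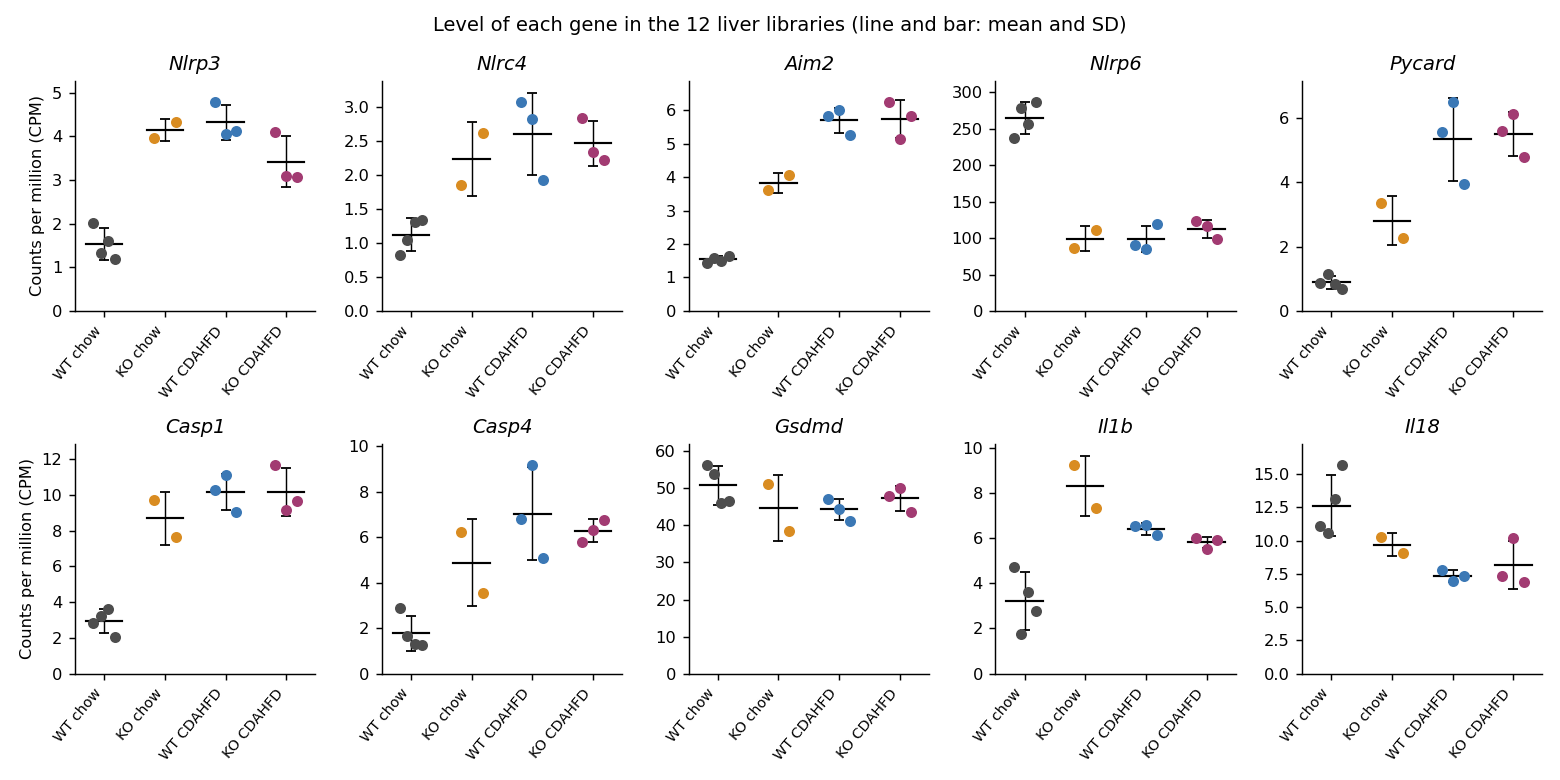
Level of each of the 10 genes in CPM (vertical axis, from 0, with its own scale in each panel) in the 4 groups, where points are libraries and the line and bar are the mean and SD. WT chow stands apart from the other groups for Nlrp3, Aim2, Nlrp6, Pycard and Casp1, as in Aim2, where WT chow was at most 1.65 CPM and the others at least 3.62 CPM, while the groups overlap for Gsdmd.

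Casp1 (ENSMUSG00000025888, chr9:5298517-5307265), the protease of the canonical inflammasome, was at 2.83, 3.24, 3.63 and 2.06 CPM in WT chow. It was at 9.74 and 7.64 CPM in KO chow, at 10.3, 11.1 and 9.07 CPM in WT CDAHFD, and at 11.7, 9.14 and 9.68 CPM in KO CDAHFD. All 8 libraries outside WT chow were more than double the highest WT chow library. The rise was 2.93-fold for KO chow (log2 1.55 ± 0.204, adjusted p = 7.35e-05) and 3.43-fold in both WT CDAHFD (1.78 ± 0.186, 6.08e-06) and KO CDAHFD (1.78 ± 0.186, 5.70e-06).

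Casp4 (ENSMUSG00000033538, chr9:5308828-5336783), which lies next to Casp1 on chromosome 9 and is a paralog of it, varied more between libraries. Its values were 2.91, 1.64, 1.30 and 1.28 CPM in WT chow, 6.23 and 3.54 CPM in KO chow, 6.82, 9.20 and 5.11 CPM in WT CDAHFD, and 5.79, 6.31 and 6.78 CPM in KO CDAHFD. WT chow did not overlap with the other groups, although KO chow 2 was only a little above WT chow 1. The log2 fold change was 1.45 ± 0.334 for KO chow (adjusted p = 0.00419), 1.98 ± 0.302 for WT CDAHFD (0.000141) and 1.82 ± 0.303 for KO CDAHFD (0.000268). Without KO chow 1 the KO chow change was 0.999 with an adjusted p of 0.095.

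Gsdmd (ENSMUSG00000022575, chr15:75862327-75867408), whose product forms the pore, passed the test in no comparison with WT chow. It was at 56.4, 54.0, 46.1 and 46.7 CPM in WT chow, 51.1 and 38.5 CPM in KO chow, 47.2, 44.4 and 41.3 CPM in WT CDAHFD, and 48.0, 50.2 and 43.6 CPM in KO CDAHFD, and all groups overlapped. The log2 fold change against WT chow was -0.18 for KO chow (95% interval -0.48 to 0.11, adjusted p = 0.314), -0.20 for WT CDAHFD (-0.46 to 0.06, 0.186) and -0.10 for KO CDAHFD (-0.36 to 0.15, 0.488). In WT CDAHFD it passed the test as lower in the libraries of low Dbp (-0.32, adjusted p = 0.0185) and with the clock score as a covariate (-0.25, 0.0279). When counts were scaled by library size alone, Gsdmd passed the test as higher for WT CDAHFD (0.36, adjusted p = 0.0298) and for KO CDAHFD (0.50, 0.00464), a scaling that moved the median of all genes to 0.51 and 0.57.

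Il1b (ENSMUSG00000027398, chr2:129364570-129371139), the cytokine precursor whose gene is switched on by NF-κB, was at 4.74, 1.76, 3.63 and 2.75 CPM in WT chow. It was at 9.25 and 7.35 CPM in KO chow, at 6.52, 6.60 and 6.12 CPM in WT CDAHFD, and at 5.99, 5.53 and 5.90 CPM in KO CDAHFD. Every WT chow library lay below every other library, and KO chow was the highest group. The rise was 2.58-fold for KO chow (log2 1.37 ± 0.272, adjusted p = 0.00166), 1.99-fold for WT CDAHFD (0.996 ± 0.248, 0.00481) and 1.81-fold for KO CDAHFD (0.853 ± 0.249, 0.0117). In the libraries of low Dbp the KO CDAHFD change was 0.846 with an adjusted p of 0.0808.

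Il18 (ENSMUSG00000039217, chr9:50554827-50581840), which in liver is made constitutively, was at 11.1, 10.6, 13.1 and 15.7 CPM in WT chow. It was at 10.3 and 9.09 CPM in KO chow, at 7.79, 6.93 and 7.32 CPM in WT CDAHFD, and at 7.37, 10.2 and 6.85 CPM in KO CDAHFD. All libraries outside WT chow lay below its lowest value, though KO chow 1 and KO CDAHFD 2 only just. Its change was -0.38 ± 0.197 on the log2 scale for KO chow (adjusted p = 0.147), -0.78 ± 0.174 for WT CDAHFD (0.00239) and -0.63 ± 0.174 for KO CDAHFD (0.00834). The calls on CDAHFD were lost under scaling by library size alone (-0.22, adjusted p = 0.235, and -0.02, 0.901), and that in KO CDAHFD also in the libraries of low Dbp (-0.31, 0.188). Il18 lies within a region shared with Bco2 and Tex12 on the opposite strand, with 0 exon bases in common.

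As a group, 7 of the 10 genes rose and 1 fell in KO chow, where 22% of all genes tested were called higher and 17% lower. In WT CDAHFD 7 rose and 2 fell, against 26.1% and 25% of all genes, and in KO CDAHFD again 7 rose and 2 fell, against 26.9% and 25.4%. The median log2 fold change of the 10 genes was 1.35, 1.36 and 1.14 in the 3 comparisons, while that of all genes was 0.00217, -0.0478 and -0.0397. These 3 comparisons share the 4 WT chow libraries. Scaling by library size alone gave 8 rises and 1 fall in both CDAHFD comparisons, where it called 52.4% and 56.3% of all genes higher and 6.74% and 6.31% lower, and in KO chow 7 and 1, against 40.5% and 6.62%.

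**Figure D2:**
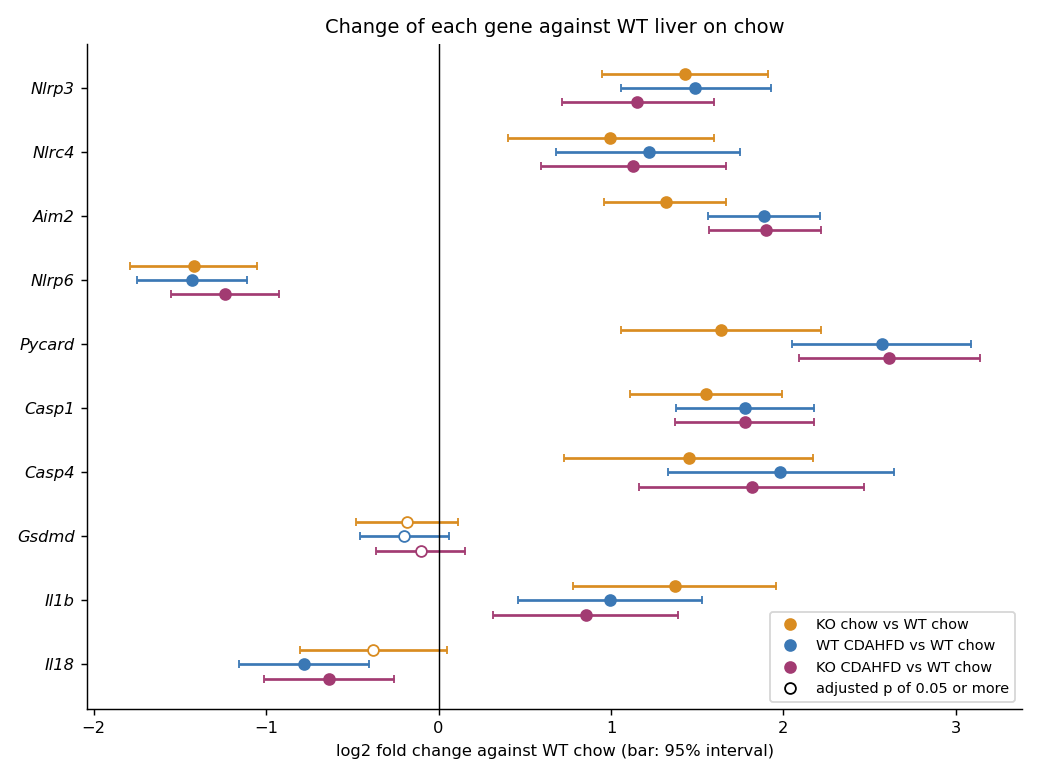
Change of the 10 genes against WT chow (horizontal axis, log2 fold change), with points for the estimate, bars for its 95% interval, and open points for an adjusted p of 0.05 or more. Pycard reached 2.61 in KO CDAHFD, Nlrp6 fell to -1.43 in WT CDAHFD, and Gsdmd stayed within 0.20 of no change.

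The effect of genotype under CDAHFD was compared next. Between KO CDAHFD and WT CDAHFD 0 of 10 genes were called by edgeR, 0 had an unadjusted p under 0.05, and DESeq2 also called 0, where 0.0864% of all genes were called higher and 0.271% lower. The changes ran from -0.34 for Nlrp3 (95% interval -0.79 to 0.11) to 0.19 for Nlrp6 (-0.14 to 0.52). For Casp1 the interval was -0.41 to 0.41 and for Pycard -0.46 to 0.55, so smaller changes in either direction could not be resolved with these libraries.

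The effect of diet in KO liver was compared in the same way. Between KO CDAHFD and KO chow, where 3.76% of all genes were called higher and 2.44% lower, edgeR called 0 of the 10 genes, 2 had an unadjusted p under 0.05 and DESeq2 called 2. Both were Pycard, at 0.97 ± 0.272 on the log2 scale (95% interval 0.38 to 1.56, adjusted p = 0.0543), and Aim2, at 0.58 ± 0.171 (0.21 to 0.95, 0.0661). Il1b went down, at -0.51 ± 0.287 (-1.13 to 0.11, 0.31).

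The combined change was smaller than the sum of the single changes. In the interaction of genotype and diet, in which a negative value is a combined log2 change below the sum, 6 of the 10 genes were called lower and 1 higher, against 14.5% and 8.63% of all genes. For Nlrp3 the single changes summed to 2.92 and the combined change was 1.15, an interaction of -1.77 ± 0.305 (adjusted p = 0.00114). Pycard had a sum of 4.21 and a combined change of 2.61 (-1.60 ± 0.357, 0.00619), and Casp1 a sum of 3.33 and a combined change of 1.78 (-1.55 ± 0.282, 0.00163). Aim2 (-1.30 ± 0.224, 0.00111), Casp4 (-1.61 ± 0.454, 0.0217) and Il1b (-1.51 ± 0.378, 0.012) were also below their sums. Nlrp6, which fell, was above its sum of -2.85 (1.61 ± 0.224, adjusted p = 0.000256). Nlrc4 (-1.08, adjusted p = 0.0546), Il18 (0.53, 0.185) and Gsdmd (0.28, 0.324) were not called by edgeR. Nlrc4 passed with DESeq2 (-1.09, 0.0284), with the clock score as a covariate (-1.20, 0.0278) and with scaling by library size alone (-1.44, 0.0104). The call of Casp4 was lost without WT CDAHFD 2 (-1.37, adjusted p = 0.0635), KO chow 1 (-1.15, 0.15) or KO CDAHFD 1 (-1.56, 0.0525), and that of Il1b without KO chow 1 (-1.33, 0.0615), while Nlrc4 passed without WT CDAHFD 3 (-1.26, 0.0335).

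**Figure D3:**
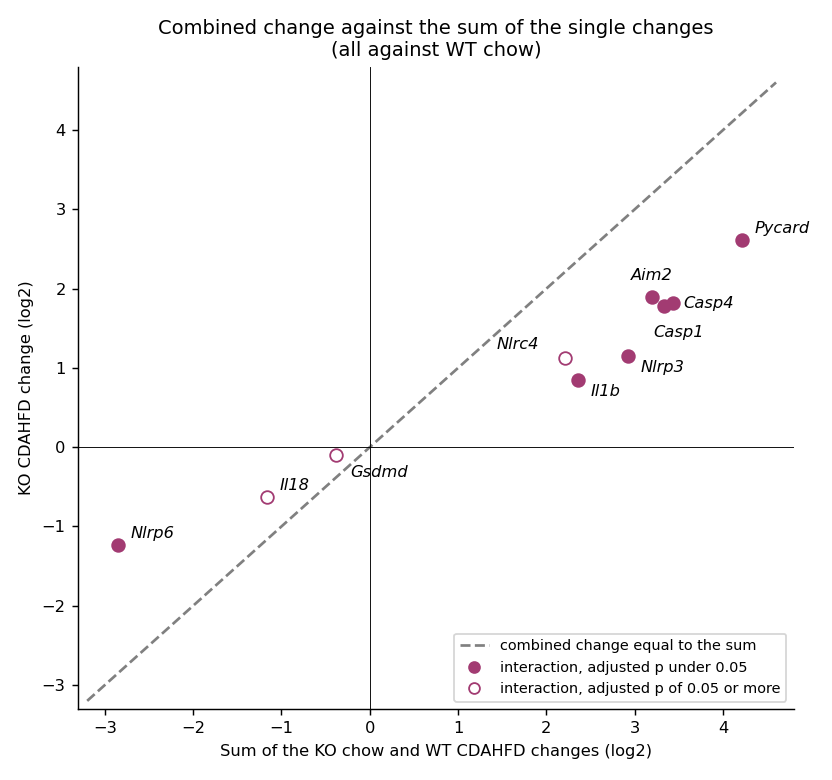
Combined change for KO CDAHFD (vertical axis, log2) against the sum of the changes in KO chow and for WT CDAHFD (horizontal axis, log2), where the dashed line marks equality and filled points an interaction with an adjusted p under 0.05. The 7 genes that rose lie below the line, as Pycard with 2.61 against a sum of 4.21, and Nlrp6 lies above it with -1.24 against -2.85.

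Compared per length of exon, the 10 genes spanned a wide range in WT chow liver. The level in RPKM, which is CPM per kilobase of exon, was 52.2 ± 4.46 (SD, n = 4) for Nlrp6, 21.4 ± 2.17 for Gsdmd and 12.3 ± 2.23 for Il18, each above the next beyond the SD. Casp1 (1.97 ± 0.449) and Il1b (1.69 ± 0.664) followed and did not differ beyond their spread. Casp4 (0.481 ± 0.207), Aim2 (0.440 ± 0.0265) and Nlrp3 (0.378 ± 0.0901) differed from each other by less than the larger SD of each pair. Nlrc4 (0.233 ± 0.0504) and Pycard (0.233 ± 0.0528) were at the bottom, within each other's spread. With the longest transcript as the length, Casp4 was at 0.938, above Aim2 and Nlrp3.

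That order compressed in the other groups. In WT CDAHFD Nlrp6 was at 19.4 ± 3.58 (SD, n = 3) and Gsdmd at 18.6 ± 1.24 RPKM, which did not differ beyond their spread, nor did Il18 (7.13 ± 0.414) and Casp1 (6.79 ± 0.692). Pycard moved from the last place to the eighth, at 1.40 ± 0.340, between Aim2 (1.63 ± 0.109) and Nlrp3 (1.07 ± 0.1). KO CDAHFD had the same order, with Nlrp6 at 22.1 ± 2.47, Gsdmd at 19.9 ± 1.43 and Pycard at 1.45 ± 0.178.

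**Figure D4:**
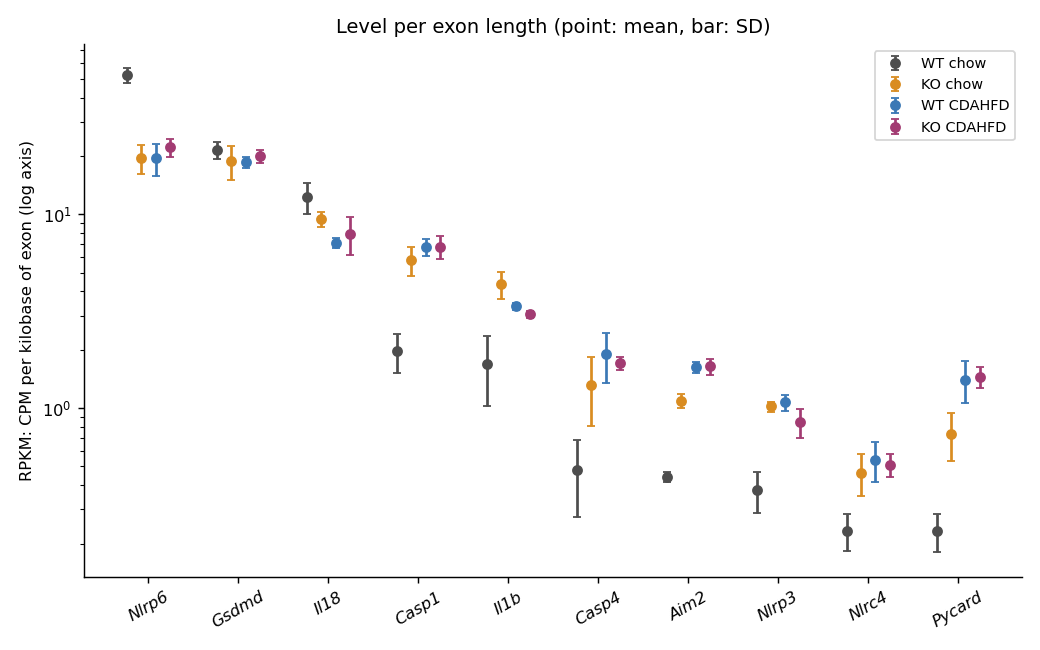
Level per exon length in each group (vertical axis, log scale, RPKM, which is CPM per kilobase of exon), with points for means, bars for SD and genes in the order of WT chow. Nlrp6 comes down from 52.2 in WT chow to between 19.4 and 22.1 elsewhere, close to Gsdmd, while Pycard rises from 0.233 to 1.45.

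Markers of immune cells rose in the same libraries. In bulk liver, more cells of a type and more RNA per cell cannot be told apart. Of 10 macrophage markers, 8 rose in KO chow and 6 in each CDAHFD group, where Timd4, a marker of resident Kupffer cells, fell, and their summed level was 363 to 622 CPM in WT chow, 1170 to 1450 CPM in KO chow, 1110 to 1420 CPM in WT CDAHFD and 913 to 1280 CPM in KO CDAHFD. All 9 markers of recruited monocytes rose in each group, from a sum of 23.1 to 52.4 CPM in WT chow to 230 to 276 CPM in KO chow, 836 to 1130 CPM in WT CDAHFD and 890 to 1010 CPM in KO CDAHFD. Gpnmb alone made up a mean of 712 CPM of the sum in WT CDAHFD and 631 CPM in KO CDAHFD, where Ccr2 was at 36.7 and 34.2 CPM. Neutrophil markers summed to 2.86 to 14.6 CPM in WT chow and to 22.2 to 33.4 CPM elsewhere, with Mpo and Camp at 0 counts in WT chow and Ly6g at no more than 3 counts in any library. WT chow 1 had the highest neutrophil sum of its group and also its highest Il1b, Casp4, Nlrp3 and Gsdmd. It had the lowest Nlrc4, Aim2 and Nlrp6 of its group, and lay between for Casp1, Pycard and Il18. The 8 hepatocyte markers included 5 that fell in KO chow and 8 that fell in both CDAHFD groups. Beside these counts, 22% to 26.9% of all genes were called higher, depending on the group, and 17% to 25.4% lower. The part of the marker shifts in the changes of the 10 genes was not tested.

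Set against the summed macrophage markers, the genes differed among themselves. The log2 ratio of Nlrp3 to these markers differed from its WT chow mean by only 0.07 for KO chow, 0.17 for WT CDAHFD and 0.03 for KO CDAHFD, less than the SD of WT chow (0.177). Il1b (0.06, -0.27 and -0.21, with an SD of 0.462 in WT chow) and Nlrc4 (-0.39, -0.14 and 0.00, with 0.588) likewise stayed within the spread of WT chow. Pycard exceeded the markers by 1.23 in WT CDAHFD and 1.5 in KO CDAHFD, Casp1 by 0.46 and 0.66, Casp4 by 0.67 and 0.76, and Aim2 by 0.53 and 0.75. In KO chow these ratios were 0.27 ± 0.624 (SD, n = 2) for Pycard, 0.19 ± 0.469 for Casp1, 0.10 ± 0.798 for Casp4 and -0.07 ± 0.106 for Aim2. Gsdmd, Il18 and Nlrp6 were below them by 1.25 to 2.82 in every group other than WT chow. The macrophage list holds genes of resident and of recruited cells that moved in different directions, and these ratios are descriptions without a test.

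**Figure D5:**
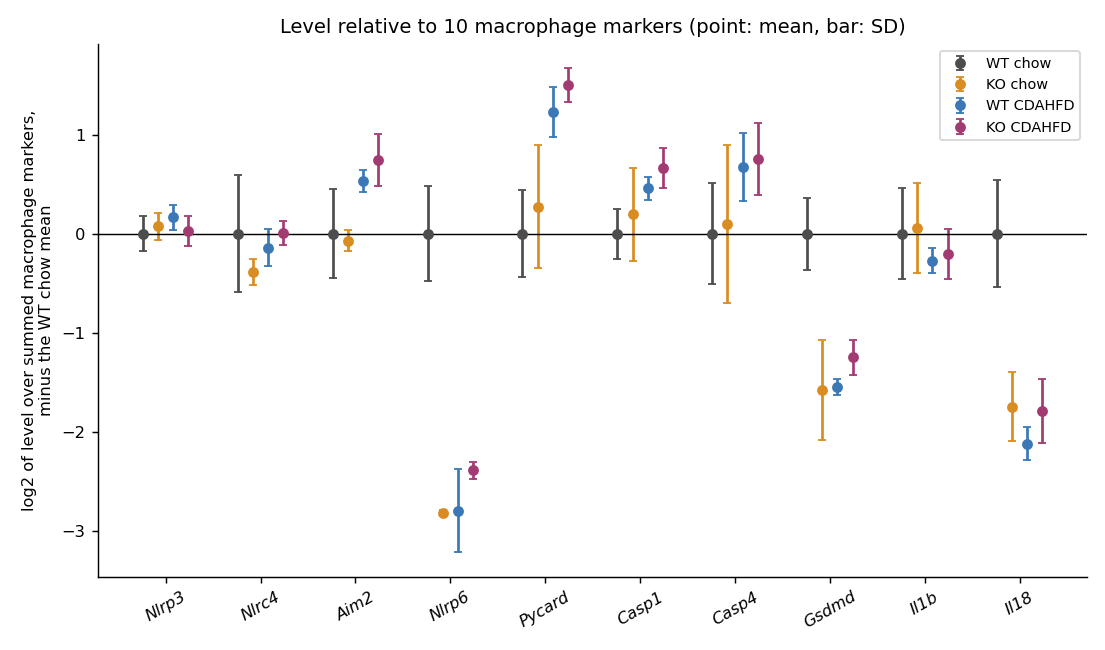
Log2 ratio of each gene to the sum of 10 macrophage markers, centred on the WT chow mean (vertical axis), with points for group means and bars for SD. Nlrp3 stays within 0.17 of 0 in every group, Pycard is 1.5 above in KO CDAHFD, and Nlrp6, Gsdmd and Il18 are below in all 3 groups other than WT chow.

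Other sensors and regulators moved mostly up. Of 27 listed genes 26 were tested, and 14 rose and 3 fell in KO chow, 17 rose and 2 fell in WT CDAHFD, and 16 rose and 4 fell in KO CDAHFD, with median log2 changes of 1, 1.6 and 1.34. Of all genes tested, 22%, 26.1% and 26.9% were called higher and 17%, 25% and 25.4% lower in these comparisons. Panx1, a channel through which ATP leaves the cell, rose by 3.61 ± 0.296 in KO chow and 3.71 ± 0.278 in WT CDAHFD on the log2 scale. Nlrp1a, a sensor next to its paralog Nlrp1b, rose by 2.72 and 3.63 from 0.0883 ± 0.0539 CPM (SD, n = 4) in WT chow. Pstpip1, a binding partner of pyrin, rose by 2.28 and 3.52. In KO CDAHFD the changes of Panx1, Nlrp1a and Pstpip1 were 3.62, 3.03 and 3.48. Naip2, Naip5 and Naip6, the flagellin and secretion protein receptors that act with NLRC4, rose by 1.66, 1.78 and 1.54 in WT CDAHFD, although their near-identical copies make the split of reads between them uncertain, and Naip1 was at 0.15 (adjusted p = 0.798) and not called in any of the 3 comparisons. P2rx7, the ATP receptor upstream of NLRP3, rose by 1.98. The genes that fell, chosen for mention after their values were seen, were Nlrp12 in all 3 comparisons (-1.83, -0.64 and -1.43), Casp8 (-0.57) and Txnip (-0.96) in KO chow, Brcc3 (-0.46) in WT CDAHFD, and Casp8 (-0.68), Brcc3 (-0.49) and Nek7 (-0.38) in KO CDAHFD.

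Other gasdermins were nearly silent. The genes Gsdma, Gsdma2, Gsdma3, Gsdmc, Gsdmc2, Gsdmc3 and Gsdmc4 had at most 1 count in any library and were not tested, which leaves Gsdme, at 11.2 ± 3.01 CPM (SD, n = 4) in WT chow and with changes of 0.07, -0.13 and 0.13, none called. Of the 10 genes tested in the list with pore and guanylate binding genes, 3 rose in each comparison and 1, 2 and 4 fell, where the shares of all genes called higher were 22%, 26.1% and 26.9% and of those called lower 17%, 25% and 25.4%. Those that rose were Gbp2, Gbp3 and Gbp5, guanylate binding proteins, a family that acts on bacteria in the cytosol upstream of caspase 4, while Gbp7 of the same family was at 0.04, 0.17 and -0.11 and was not called. Gbp2 rose by 2.18 with KO chow, 1.37 with WT CDAHFD and 1.01 with KO CDAHFD, Gbp3 by 1.32, 1.03 and 0.88, and Gbp5 by 1.5, 0.93 and 0.64. Ninj1, which ruptures the membrane after the pore has formed, fell by 0.45 in KO chow and by 0.42 in KO CDAHFD on the log2 scale and was at -0.31 for WT CDAHFD (adjusted p = 0.0817). The interferon-induced Irgm2 fell by 0.88 in KO CDAHFD, a fall that is given after its value was seen. The median of this list was 0.05, -0.22 and -0.22.

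Receptors, antagonists and relatives of the cytokines gave 17 tested genes, of which 9 rose and 3 fell in KO chow, 10 rose and 1 fell in WT CDAHFD, and 9 rose and 1 fell in KO CDAHFD, with medians of 0.71, 0.80 and 0.69, against the same 22%, 26.1% and 26.9% of all genes called higher and 17%, 25% and 25.4% called lower. The IL-1 receptor antagonist Il1rn was at 4.08, 2.30, 1.93 and 1.28 CPM in WT chow, 36.4 and 32.6 CPM in KO chow, 47.5, 38.6 and 35.9 CPM in WT CDAHFD, and 38.7, 46.8 and 43.2 CPM in KO CDAHFD. All libraries outside WT chow were far above it, with log2 changes of 3.84 ± 0.277, 4.08 ± 0.264 and 4.15 ± 0.265 (adjusted p = 6.80e-07, 1.24e-07 and 1.02e-07). Il1r2, the decoy receptor, had at most 1 count in any WT chow library, so a floor of 3 counts per library was used. Against it the group mean was at least 4.45-fold higher in KO chow, 3.59-fold in WT CDAHFD and 4-fold in KO CDAHFD. These means were 0.499 ± 0.294 (SD), 0.402 ± 0.147 and 0.448 ± 0.207 CPM, so single libraries can lie below those folds. Il36g, an epithelial IL-1 relative with at most 2 counts in WT chow, had means higher by at least 11.1-fold, 9.37-fold and 6.1-fold on the same floor. They were 1.25 ± 0.464, 1.05 ± 0.115 and 0.684 ± 0.293 CPM. Il1rl2, the receptor of IL-36, rose by 1.54, 2.10 and 2.21.

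The IL-18 binding protein Il18bp, which neutralises IL-18, was at 15.9, 11.4, 15.3 and 10.1 CPM in WT chow, 28.6 and 31.2 CPM in KO chow, 24.6, 20.9 and 23.5 CPM in WT CDAHFD, and 24.7, 23.5 and 15.7 CPM in KO CDAHFD. It rose by 1.18 ± 0.200, 0.80 ± 0.182 and 0.69 ± 0.182, though KO CDAHFD 3 lay within the WT chow range. Its receptor chain Il18r1 rose by 1.77, 1.75 and 1.34. The signalling receptor Il1r1 was spread from 25.5 to 120 CPM within WT chow and changed by -1.19 ± 0.440 for KO chow (adjusted p = 0.0484), -0.28 for WT CDAHFD (0.544) and -0.58 for KO CDAHFD (0.211). Il1rap, the shared accessory chain, was the gene that fell in all 3 comparisons, from 261 ± 28.9 CPM in WT chow to 100 ± 3.31, 80.8 ± 5.76 and 89.4 ± 17.2 CPM, and Irak2, a kinase of IL-1 signalling, fell in KO chow (-0.59, adjusted p = 0.0145). Both are mentioned because of these values.

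Cytokine and antagonist thus moved by different amounts. The log2 ratio of Il1b to Il1rn CPM was 0.46 ± 0.678 (SD, n = 4) in WT chow, -2.06 ± 0.120 for KO chow, -2.66 ± 0.183 for WT CDAHFD and -2.88 ± 0.194 for KO CDAHFD. That of Il18 to Il18bp was -0.05 ± 0.490, -1.62 ± 0.218, -1.64 ± 0.0481 and -1.38 ± 0.315 in the same order. In both ratios every library outside WT chow lay below the lowest WT chow library, which was at -0.38 and -0.52. Transcript levels say nothing of how much cytokine was cleaved or released, and these ratios were not tested.

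For each of the 10 genes the genes most like it were sought over the 12 libraries, as those with the smallest root mean square difference of centred log2 CPM. Nlrp3 was closest to Themis2 (0.0917 log2), Lcp2 (0.123) and Fam49a (0.137), where the spread of Nlrp3 itself about its mean was 0.676. Aim2 was closest to Plekho1 (0.106), Sestd1 (0.134) and Ctsd (0.142), and Nlrp6 to Abat (0.146), C1rl (0.150) and Cyp2d10 (0.154). Pycard was closest to Plp2 (0.171), Prmt2 (0.225) and Adam15 (0.238) with a spread of its own of 1.17. Casp1 was nearest to Mapk7 (0.150), BC055324 (0.157) and Actg1 (0.158), and Casp4 to Plekha4 (0.192), Kctd17 (0.213) and Oas1a (0.226). For Nlrc4 the nearest were Mrgpre (0.180), Hmga1 (0.190) and Mafk (0.197), and for Il1b they were Camk2n2 (0.167), Pou2f2 (0.189) and Cdc25a (0.200). Il18 was nearest to Alg11 (0.105), Gemin2 (0.105) and Jtb (0.111). Gsdmd, which varied by only 0.150, was nearest to Wdr34 (0.0697) and Zcchc8 (0.0785). The libraries share groups and depth, so this likeness is a description of the pattern across them.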

How the data were processed

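Whole liver RNA of 12 mice in 4 groups was purified with poly-T beads and sequenced from libraries that do not keep strand. The authors checked reads with FastQC 0.11.5 and aligned them to GRCm38 with STAR 2.7.3a, per their methods and processing notes. The program that counted reads is not given in the sources used here. The deposited values are raw read counts per gene, not normalised. Of 55357 identifiers, 52081 (94.08%) were found in GENCODE M21 and took symbol, position and exon length from it.

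Genes were filtered with filterByExpr, libraries scaled by TMM, and 4 group means fitted to all 12 libraries with edgeR 4.0.16 (R 4.3.3) and its quasi-likelihood test, p-values being adjusted by Benjamini and Hochberg across 17358 genes with a threshold of 0.05. Errors are SE of the log2 fold change, and intervals are 95%. CPM used TMM library sizes. Fold bounds set the group mean against a floor of 3 counts, which covers counting error only and not the spread between libraries. The fits were tested on simulated data in which few genes changed, up and down alike. That setting could not check the scaling of these libraries, where far more genes differed. DESeq2 1.42.0 was an alternative, and the others stand in the closing section. Libraries are separate samples per the labels, and where nothing shows more, p-values measure the spread between these samples.

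The 10 genes, the other lists and the tests were chosen with earlier results of these data known. Named genes are all 10, in each further list up to 4 genes called in all 3 comparisons with WT chow with the largest change in WT CDAHFD, Il1rn, Il18bp, Il1r1 and Il18r1, and the 3 most like genes per member with a mean of at least 1 CPM. Others are named as chosen after their values were seen, as were Naip2, Naip5, Naip6, P2rx7, Gsdme and Ninj1. A few genes that the rule or a count would name are not reported here. Depth limits Nlrc4, Nlrp3 and Pycard most, which had as few as 21, 26 and 15 counts in a library.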

Additional observations from a re-analysis of the deposited data

Results flagged for a closer look

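The effect of genotype differed between the diets, by the interaction term of edgeR's fit, for 7 of the 10 genes. That term was called higher for 8.63% of all genes and lower for 14.5%. On the log2 scale the interaction was -1.55 for Casp1, -1.61 for Casp4, -1.77 for Nlrp3, -1.30 for Aim2, -1.60 for Pycard and -1.51 for Il1b, all of which rose, and 1.61 for Nlrp6, which fell. No library of the WT chow group, which alone was large enough to be examined, stood apart from the other libraries of its group by Dixon's criterion in the level of any of these genes. With 4 values this criterion finds only a library very far from the rest. For Casp4, WT chow 1 had 2.91 CPM against 1.28 to 1.64 CPM in the other libraries of its group.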

How the results depend on the processing

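Between KO CDAHFD and KO chow, where 0 genes were called, library size alone and DESeq2 called 2, RLE factors, no filter, the replicate number as a block and the clock score as a covariate each called 1, and leaving out 1 library called 0 to 1. The other counts of called genes stayed within 1.5 times, with 7 to 8 in KO chow and 5 to 8 for the interaction when 1 library was left out. Without TMM, scaling by library size alone moved the median of all genes by 0.40, 0.51 and 0.57 log2 in the 3 comparisons with WT chow and gave Gsdmd 0.218, 0.356 and 0.499, Il18 0.032 in KO chow and a Gsdmd interaction of -0.0756. Gsdmd ran from -0.389 to 0.00693 in KO chow when 1 library was left out. The other changes of sign were in differences that passed no test. Between KO CDAHFD and WT CDAHFD, leaving out 1 library gave -0.111 to 0.0711 for Casp1, -0.348 to 0.0764 for Casp4, -0.26 to 0.0516 for Nlrc4, -0.0553 to 0.0848 for Aim2, -0.133 to 0.211 for Pycard and -0.047 to 0.258 for Il18, the clock covariate gave 0.0105 for Casp4 and -0.014 for Aim2, and the block gave -0.00484 for Casp1. Between KO CDAHFD and KO chow, Nlrc4 ran from -0.0726 to 0.41 and Gsdmd from -0.111 to 0.313. The libraries of low Dbp, an alternative chosen after seeing the data, gave -0.0417 for Casp4 and -0.0556 for Gsdmd. With all libraries these changes were 0.368 and 0.0777. The cause was not tested.

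Replicate numbers did not pair the libraries. Of 15 same-numbered pairs, 3 had deviations correlated above 0.1, in a range of -0.242 to 0.266, and with the block the interaction of Casp4 was -1.35 (adjusted p = 0.0653) and 6 of 10 interactions were called. Of 1190 alternative values for the 10 genes, 1139 kept their direction and side of the threshold, 17 passed it newly, 12 no longer did and 22 changed sign. They include fits without a library of a group outside the comparison. The estimate can hardly move in those, so the share kept is not a measure of robustness. The interaction could not be fitted on 2 groups only.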

Other observations

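Markers of other liver cell types were summed in the same libraries. Their counts of called markers stand beside 22% to 26.9% of all genes called higher and 17% to 25.4% called lower. Cholangiocyte markers summed to 46.4 to 79.5 CPM in WT chow, 166 to 289 CPM in KO chow, 361 to 581 CPM in WT CDAHFD and 572 to 888 CPM in KO CDAHFD, with 5, 6 and 6 of 6 markers higher than in WT chow. Spp1, which other cells also express, made up a mean of 424 CPM of that sum in WT CDAHFD and 681 CPM in KO CDAHFD. Stellate cell markers, among them the collagen gene Col1a1, summed to 211 to 287 CPM in WT chow and to 747 to 1080 CPM in the other groups. Endothelial markers summed to 178 to 272 CPM in WT chow and to 169 to 250 CPM in KO chow. They were at 121 to 170 CPM in WT CDAHFD and 121 to 214 CPM in KO CDAHFD. In KO chow 1 of 6 was called higher, where 22% of all genes were. In each CDAHFD group 3 of 6 were called lower, against 25% and 25.4% of all genes. T or NK cell markers summed to 5.69 to 8.47 CPM in WT chow and 7.25 to 11.1 CPM in KO chow. They were at 8.49 to 9.2 CPM in WT CDAHFD and 7.52 to 9.23 CPM in KO CDAHFD. Of 8 markers, 5, 4 and 5 were called higher in the 3 comparisons with WT chow and 1 lower in each. The marker that fell, named for that reason, was Cd4, with a mean of 3.78 CPM in WT chow, where the mean sum was 6.71 CPM. B or plasma cell markers were at 4.36 to 8.58 CPM in WT chow and 6.64 and 18 CPM in KO chow. There 1 of 5 was called higher, near the share of all genes. They were at 7.36 to 10.7 CPM in WT CDAHFD and 7.42 to 13.6 CPM in KO CDAHFD, with 0 called. Dendritic cell markers were at 9.82 to 12.4 CPM and 17.0 to 20.5 CPM in WT chow and KO chow. They were at 17.8 to 21 CPM in WT CDAHFD and 20.8 to 24.5 CPM in KO CDAHFD. Of 6 markers, 5, 4 and 5 were called higher in the 3 comparisons and 0 lower.

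Within the libraries of high Dbp, with 2 WT chow, 1 KO chow and 1 KO CDAHFD, the log2 changes in KO chow were 1.64 for Nlrp3, 1.39 for Aim2, 1.58 for Pycard and -1.27 for Nlrp6, and in the libraries of low Dbp they were 1.26, 1.26, 1.71 and -1.57. For Casp4 in KO CDAHFD they were 2.46 and 1.43. The values of the high class have 1 library in each KO group and were not tested.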
